A study of Homo sapiens with 12 samples.

Results

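The 289 regions described here are the H3K27me3 peaks of EPZ011989 replicate 1 on chromosomes 1 to 22 that share no base with an H3K27me3 peak of either vehicle library. They make up 289 of the 361 treated replicate 1 peaks on these chromosomes, and the other 72 lie on vehicle domains and serve as the comparison. Vehicle H3K27me3 peaks cover 6.75% of the annotated span of these chromosomes, so most of the span lies off them whatever the treatment. Of those 72, 25 lie on chromosome 17 from 40 to 50 Mb. Each comparison with the 72 thus rests in part on that stretch, and the intervals treat its peaks as independent. The 289 were chosen by measured peak positions in these 3 libraries, so their number, width, fold and distance to vehicle peaks are given as a description, with no test. CUT&RUN, in which an antibody bound to chromatin directs a nuclease to release the DNA beneath it, was run on MKL-1, an established line of virus-positive Merkel cell carcinoma. The EPZ011989 group received 3 µM of this EZH2 inhibitor in 1% ethanol and the vehicle group received 1% ethanol alone, for 6 days with new medium on day 3. The series' design text says that treated and control samples were divided among an H3K27me3, an H3K4me3 and an IgG antibody, which gives 12 libraries in 6 groups of 2 replicates. Whether equal replicate numbers mark 1 culture is not stated. All groups share 1 cell line treated in duplicate, and all 289 regions come from 1 library, so they are not replicates of the treatment.

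H3K27me3 is trimethylation of lysine 27 of histone H3, and EZH2 is the enzyme of Polycomb repressive complex 2 (PRC2) that writes it. In most cells the mark forms broad domains over silent developmental genes such as the HOX clusters, while H3K4me3 marks the start sites of active genes. Inhibitors of EZH2 stop new methylation, and the mark is then diluted as cells divide and histones turn over.

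The deposited values are peak lists only, on the hg38 build, and depth is unknown. A stand-in solved from each list placed the background at 0.373 and 0.148 fragments per base in the EPZ011989 H3K27me3 libraries, against 1.12 and 1.63 in vehicle. The EPZ011989 lists held 361 and 22 peaks on chromosomes 1 to 22, against 40186 and 43634 in vehicle. In the EPZ011989 and vehicle H3K4me3 libraries the background was 1.48 and 1.24, against 0.572 and 0.857 fragments per base. The line was checked through H3K4me3 at start sites of marker genes. Of 9 Merkel cell and neuroendocrine genes with a tabulated start site on chromosomes 1 to 22, 9 and 8 carried an H3K4me3 peak within 2500 bp of one in EPZ011989 and 9 and 8 in vehicle. No peak in any of the 4 libraries lay at the start of the keratinocyte genes KRT5, TP63 and DSG3 or of the fibroblast gene PDGFRB, and 1 of 2 lymphoid and myeloid genes carried one in each library. No endothelial marker had a tabulated start.

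Only 3 of the 289 regions reached into a RefSeq promoter window, taken as 250 bases before to 50 after a gene's start on GRCh38.p14. They are printed to show what lies under the regions that reach into such a window, and capitals mark the bases that lie inside the treated H3K27me3 peak. The region 106 bp from the start of ZCCHC17 lies past the end of its window and is not printed. The window of FA2H, which encodes fatty acid 2-hydroxylase, is chr16:74774771-74775070 on the minus strand and holds 192 peak bases. The window of APELA, whose product is a peptide ligand of the apelin receptor, is chr4:164876928-164877227 on the plus strand and holds 114 peak bases. The window of the uncharacterised locus LOC107984462 is chr12:28122751-28123050 on the plus strand and holds 96 peak bases. Each is printed 5′ to 3′ on its own strand.
FA2H: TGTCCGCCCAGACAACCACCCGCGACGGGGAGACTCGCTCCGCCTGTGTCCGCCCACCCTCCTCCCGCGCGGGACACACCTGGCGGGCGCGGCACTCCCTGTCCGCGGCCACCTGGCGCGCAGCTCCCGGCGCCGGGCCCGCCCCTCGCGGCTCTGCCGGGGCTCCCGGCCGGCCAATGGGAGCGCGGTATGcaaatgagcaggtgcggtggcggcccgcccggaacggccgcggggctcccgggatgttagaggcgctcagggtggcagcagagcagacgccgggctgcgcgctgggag
APELA: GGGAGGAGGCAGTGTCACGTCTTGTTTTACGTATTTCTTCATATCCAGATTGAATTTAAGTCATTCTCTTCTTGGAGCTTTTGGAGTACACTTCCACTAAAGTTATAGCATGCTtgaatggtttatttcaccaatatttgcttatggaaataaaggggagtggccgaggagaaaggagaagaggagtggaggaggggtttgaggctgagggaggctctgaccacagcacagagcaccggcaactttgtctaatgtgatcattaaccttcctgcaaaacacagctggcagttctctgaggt
LOC107984462: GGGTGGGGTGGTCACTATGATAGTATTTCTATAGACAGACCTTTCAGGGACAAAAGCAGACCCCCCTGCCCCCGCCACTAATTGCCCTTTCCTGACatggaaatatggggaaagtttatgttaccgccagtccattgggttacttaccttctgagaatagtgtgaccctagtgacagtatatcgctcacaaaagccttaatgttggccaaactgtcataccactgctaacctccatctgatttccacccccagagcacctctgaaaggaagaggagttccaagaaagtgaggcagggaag
The FA2H window is 77.0% G and C with 41 CG pairs, more than in 93.2% of the 33725 promoter windows of the table, whose median is 14. APELA has 4 CG pairs at 45.0% G and C, and LOC107984462 has 3 at 48.3%, against a median of 58.7% for all windows. In the H3K4me3 libraries the FA2H region had 837 and 575 of its 916 bases under a peak with EPZ011989, against 514 and 700 in vehicle. The APELA and LOC107984462 regions had 0 bases under H3K4me3 in all 4 libraries.

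The 289 regions were short and lay close to the calling threshold. Their widths ran from 370 to 2992 bp with a median of 434 bp (95% interval of the median 423 to 449), against 373 to 4492 bp and a median of 581.5 bp (485 to 766) for the 72 treated peaks on vehicle domains. Vehicle H3K27me3 peaks had medians of 1305 and 1381 bp. Of the 289, 215 (74.4%) were under 500 bp, against 29 of 72 (40.3%) on vehicle domains. At the other end, 17 of 289 (5.88%, exact 95% interval 3.46 to 9.25) were 1 kb or wider, against 24 of 72 (33.3%, 22.7 to 45.4). With other limits, chosen after the widths were seen, 262 of the 289 were under 600 bp, 24 were 800 bp or wider and 3 lay between, against 36, 27 and 9 of the 72.

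Fold, the authors' ratio of pileup to background in this list, to each of which the caller adds a pseudocount of 1, ran from 4.37 to 6.07 with a median of 4.46 off vehicle domains, against 4.37 to 6.34 and 4.70 on them. With the library's own background these folds correspond to a mean of 5 to 7.34 fragments over a peak off vehicle domains, with a median of 5.12, and to 5 to 7.70 with a median of 5.46 on them. The lowest value in the list, 4.37 or 5 fragments, was held by 119 of 289 (41.2%, exact 95% interval 35.4 to 47.1) and by 19 of 72 (26.4%, 16.7 to 38.1). Means of 6 fragments or more were found in 24 of 289 (8.30%) and 9 of 72 (12.5%). On the −log10 q scale of the authors' caller, 35 of 289 (12.1%) and 10 of 72 (13.9%) reached 2. Taken without the pseudocount, the weakest treated replicate 1 peak held 13.4 times that library's background, whereas the weakest vehicle peaks held 4.45 and 3.69 times theirs. Of the 10 widest regions 4 sat at the lowest fold, and the region of highest fold was 661 bp wide.

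**Figure D1:**
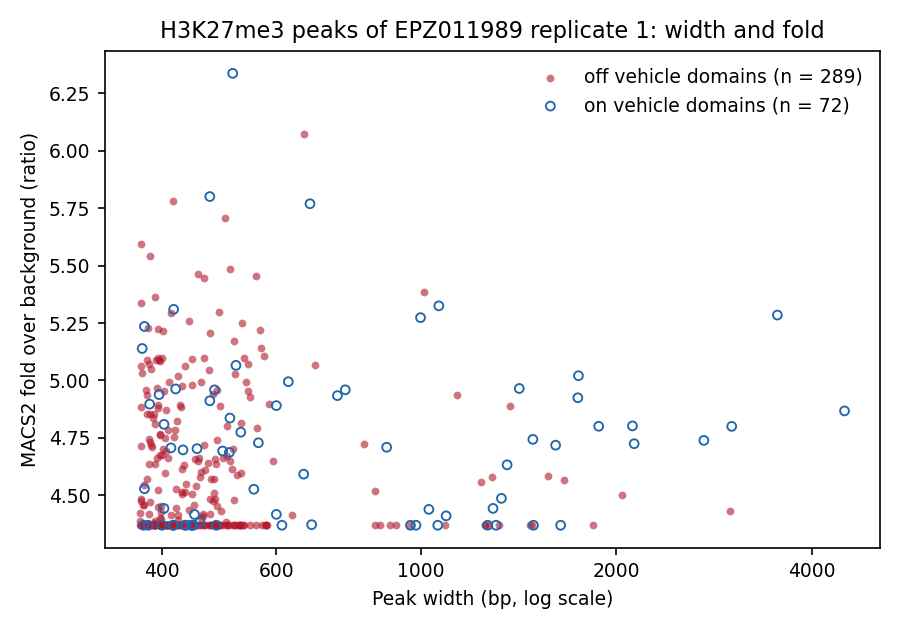
Width (bp, log axis) and MACS2 fold (ratio) of each H3K27me3 peak of EPZ011989 replicate 1, with 289 peaks off vehicle domains as filled red points and 72 on vehicle domains as open blue circles. Red points crowd under 600 bp and at the lowest fold of 4.37, where 119 of the 289 lie, and blue circles make up most of the peaks over 2 kb.

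The strongest region by fold was chr17:53712199-53712859, at 6.07 with 7.34 fragments, and no gene lay within 2500 bp of it. The second was chr11:106443840-106444255 at 5.78, also without a gene. Next came chr1:111633757-111634257 in RAP1A, which encodes a small GTPase, at 5.71, and chr6:135987619-135987989 in PDE7B, which encodes a phosphodiesterase of cyclic AMP, at 5.59. Folds of 5.54 at RASSF9, 5.48 at ST7L and 5.46 at RARB, the gene of retinoic acid receptor beta, followed. BCAS3, overlapped there by the antisense gene BCAS3-AS1, held 5.46, the long noncoding gene LINC01950 held 5.45, and KMT2C, which encodes an H3K4 methyltransferase, held 5.38. These 10 lay between 16.9 kb, at RAP1A, and 1704 kb, at LINC01950, from the nearest vehicle peak.

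The widest region, chr1:49054304-49057295, spanned 2992 bp inside AGBL4, which encodes a carboxypeptidase that trims glutamates from proteins such as tubulin. Its fold was only 4.43. LOC107984704 on chromosome 14 held 2042 bp, and an intergenic region of chromosome 12, chr12:46752269-46754111, held 1843 bp. SYNJ1, the gene of a phosphoinositide phosphatase of synaptic vesicle recycling, held 1662 bp, and USP24, which encodes a deubiquitinase, held 1572 bp. The long noncoding gene LINC02758 held 1372 bp and FBXW11, an F-box gene of a ubiquitin ligase, held 1289 bp. The other 3 of the 10 widest, at 1486, 1472 and 1320 bp, had no gene within 2500 bp.

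By the rule every region is at least 1 base from a vehicle H3K27me3 peak, and most were much farther. The distance ran from 0.544 to 3281 kb with a median of 106 kb and quartiles at 31.6 and 359 kb. Within 5 kb of a vehicle peak lay 23 of 289 (7.96%), within 10 kb 43 (14.9%) and within 100 kb 139 (48.1%), and 25 (8.65%) were over 1 Mb away. The nearest, chr14:71866264-71866634 beside RGS6, which encodes a regulator of G-protein signalling, was 544 bp from a vehicle peak with a fold of 5.06. The next, chr9:114663156-114663585 and chr17:44918541-44918935, were 633 and 1013 bp away. Just on the other side of the rule, chr10:120851553-120852152 at WDR11 shared 56 bases with a vehicle peak, chr1:20358265-20358772 at VWA5B1 shared 113 and chr1:32920061-32920534 shared 184. Their folds, 4.42, 4.69 and 5.80, fell within the range of the 289. The farthest region was chr5:26312131-26312500, 3280605 bp from a vehicle peak. Its neighbours chr5:26108590-26108969 and chr5:25889909-25890313 were 3077064 and 2858383 bp from one.

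At gaps of 50 kb or less nearly all regions stood alone. The spacing that an even spread of as many regions would give was not computed. The nearest other region of the set was 3.16 to 44569 kb away, with a median of 3154 kb over 288 regions, the only one on chromosome 19 having no neighbour. For treated peaks on vehicle domains the median was 225 kb over 65 peaks. Within 50 kb of another of their own set lay 4 of 289 (1.38%, exact 95% interval 0.378 to 3.51), against 22 of 72 (30.6%, 20.2 to 42.5). Within 1 Mb the counts were 67 (23.2%) and 40 (55.6%). Joined at gaps of 50 kb or less, the 289 formed 287 runs, of which 2 were pairs and none was longer. The 72, of which 25 lay on chromosome 17 from 40 to 50 Mb, formed 55 runs, the longest of 12 peaks. One pair, chr1:75075013-75075527 and chr1:75078688-75079943, was 3160 bp apart, and the nearest tabulated start was that of LHX8, a LIM homeobox gene, 48.5 kb off. The other pair, chr21:25649946-25650369 and chr21:25690912-25691407, lay 40542 bp apart in JAM2, the gene of a junctional adhesion molecule.

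Allowing gaps of 1 Mb, 9 runs held 3 or 4 regions, against 3 runs of 3 or more for peaks on vehicle domains, the longest of 26. How many such runs an even spread would give was not computed. Chromosome 1 had a run of 4 that holds the close pair near LHX8 and ends at ST6GALNAC3, a run of 3 at LEPR, PDE4B and INSL5, and a run of 3 around LINC02238. Chromosome 17 had a run of 4 around KIF2B that holds the region of highest fold, a run of 3 at PECAM1, RGS9 and CEP112, and a run of 3 without a protein-coding gene. The others were on chromosome 2 at ACVR1C, CCDC148 and WDSUB1, on chromosome 5 without a gene, and on chromosome 6 at the pseudogene LOC100420211. Few genes held more than 1 region. BCAS3 held 2, with folds of 5.34 and 5.46, JAM2 held 2 with 4.37 and 4.66, and SNTG1, a syntrophin gene, held 2 with 4.59 and 4.55. The pseudogene LOC107986665 held 1 at 4.37, with another at 5.03 within 2500 bp of its end.

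**Figure D2:**
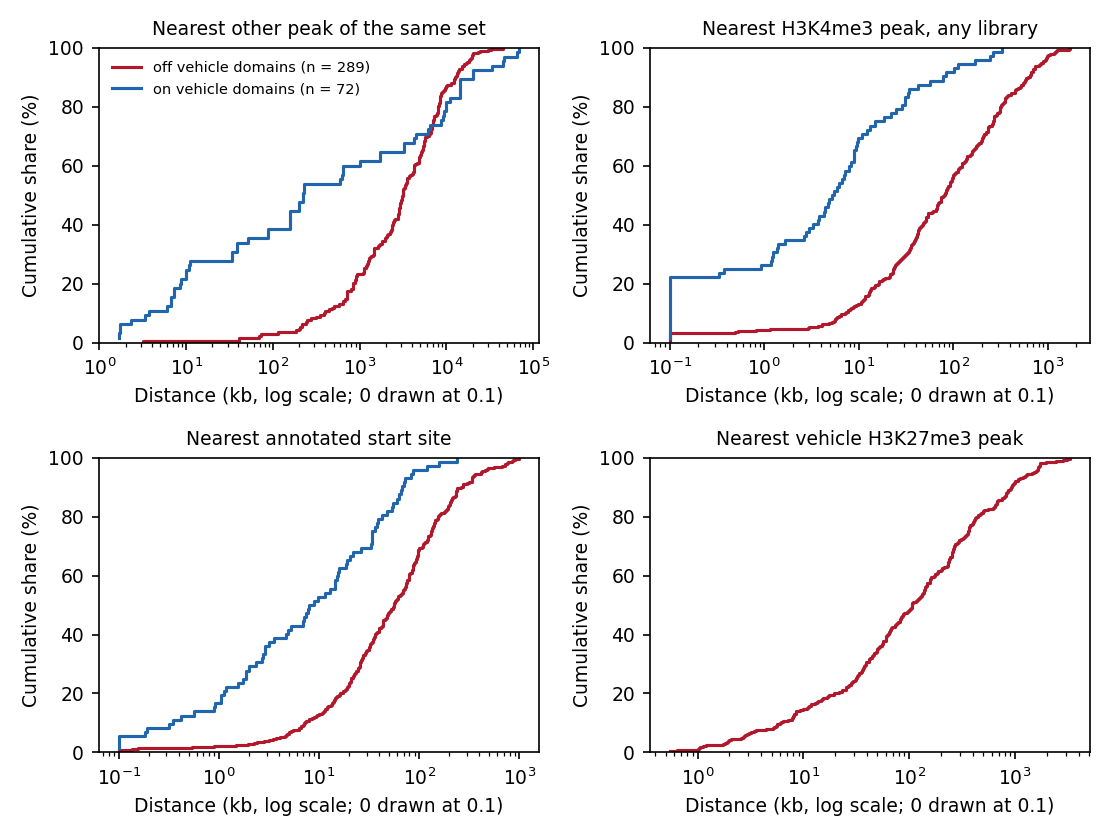
Cumulative share (%) of treated H3K27me3 peaks off vehicle domains (red) and on them (blue) by distance (kb, log axes) to the nearest other peak of the set (n = 288 and 65), H3K4me3 peak of any library (n = 289 and 72), tabulated start site (n = 283 and 72) and vehicle H3K27me3 peak (red only, n = 289). Red curves lie to the right of blue ones for H3K4me3 peaks, with medians of 80.2 and 5.37 kb, and for start sites, with medians of 55.7 and 8.46 kb.

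The second EPZ011989 library did not show a peak at any of these positions. None of the 289 overlapped a peak of EPZ011989 H3K27me3 replicate 2, and a count of 0 allows a share of up to 1.04%. The overlap was also 0 of 72 for the peaks on vehicle domains, where it allows up to 4.17%. Replicate 2 had 22 peaks on chromosomes 1 to 22, of which 17 were off vehicle domains with widths of 277 to 464 bp, and its background was 0.148 against 0.373 fragments per base in replicate 1. Those 22 lay on 4 chromosomes, 8 on chromosome 17, 6 on chromosome 6, 5 on chromosome 2 and 3 on chromosome 8. The 67 regions that share a chromosome with one were 912 kb or more from it.

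IgG peaks were equally absent from the regions. None of the 289 overlapped a peak in any of the 4 IgG libraries, again with an upper limit of 1.04% in each. The nearest IgG peak was 77.1 kb away, and the median was 17455 kb over the 257 regions on a chromosome with an IgG peak. The IgG lists held 12 and 9 peaks with EPZ011989 and 37 and 4 with vehicle, so they could have touched few regions. IgG background, at 0.0716 to 0.221 fragments per base, was below that of the library that supplied the regions. These limits cover counting error only.

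The share of regions with H3K4me3, the mark of active start sites, was low and near the share of the span under such peaks. A peak of any H3K4me3 library overlapped 9 of 289 (3.11%, exact 95% interval 1.43 to 5.83), against 15 of 72 (20.8%, 12.2 to 32.0) on vehicle domains. H3K4me3 peaks of any library covered 1.85% of the annotated span, which lies inside the interval for the 289. The measures differ, since a region counts when it shares 1 base with a peak. The span also includes the vehicle H3K27me3 peaks, where the rule allows no region. By library, 6 and 6 of the 289 regions (2.08% each) carried H3K4me3 with EPZ011989, against 5 and 4 (1.73% and 1.38%) in vehicle. On vehicle domains the counts were 14 and 13 of 72 with EPZ011989 (19.4% and 18.1%), against 9 and 9 (12.5% each) in vehicle. The median distance to an H3K4me3 peak was 80.2 kb off vehicle domains, against 5.37 kb on them.

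**Figure D3:**
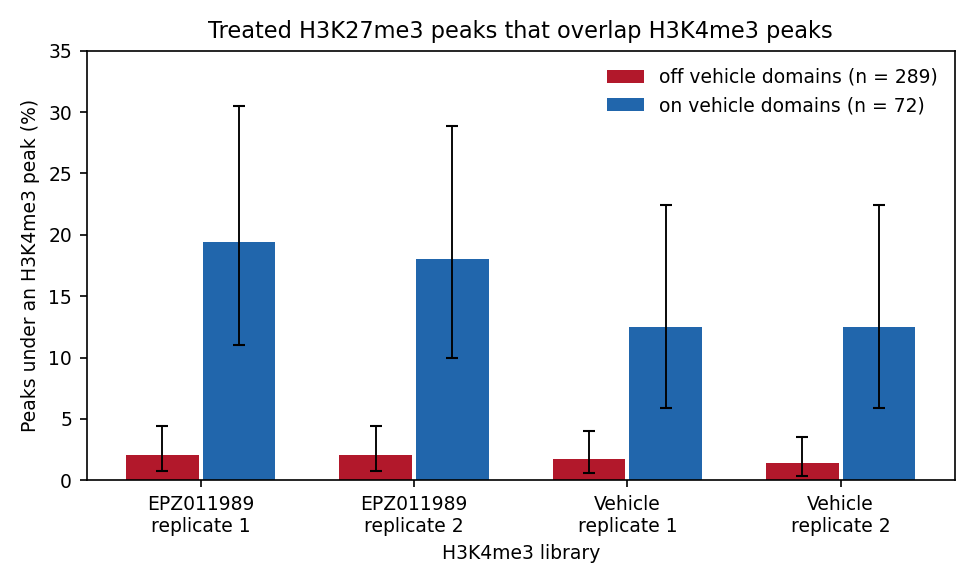
Share (%) of treated H3K27me3 peaks that overlap an H3K4me3 peak by 1 base or more, in each of the 4 H3K4me3 libraries, for the 289 off vehicle domains (red) and the 72 on them (blue). Bars are shares and lines exact 95% intervals; red bars stay between 1.38% and 2.08% and blue bars between 12.5% and 19.4%.

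Counted in bases, the 289 regions span 148.9 kb, of which 3.20 and 3.50 kb lay under H3K4me3 peaks with EPZ011989, against 2.40 and 2.40 kb in vehicle. Both EPZ011989 values exceeded both vehicle values. The means were 3.35 ± 0.210 kb with EPZ011989 and 2.40 ± 0.00283 kb in vehicle (SD, n = 2 each), a difference of 0.948 kb. The exact two-sided permutation test gave p = 0.333, the smallest that the 6 labellings of these libraries allow. This difference came largely from H3K4me3 peaks in 1 library each. EPZ011989 replicate 2 alone covered 1014 bases at KMT2C and 353 at TPX2, and replicate 1 alone 457 at VPS26C and 98 at RGS9. Vehicle replicate 1 alone covered 97 at ARHGAP18. At the 4 regions with H3K4me3 in all 4 libraries, bases were equal (ZCCHC17, SATB1) or overlapped between groups (NRDC, FA2H). For the 72 peaks on vehicle domains, the values were 9.87 and 8.07 kb with EPZ011989, against 5.52 and 4.72 kb in vehicle, again with p = 0.333 by the exact permutation test. The EPZ011989 H3K4me3 libraries also had the higher background, 1.48 and 1.24 fragments per base against 0.572 and 0.857, and its part in these differences was not tested.

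A region of H3K4me3, joined over the 4 libraries, counted as gained when both EPZ011989 libraries had a peak in it and no vehicle library did, and as lost in the mirror case. Over all 30308 such regions 1.92% were gained and 2.79% lost. Of the 9 that touch the treated peaks, 0 were gained and 0 were lost, a count too small to set against those shares. Without EPZ011989 replicate 1, 2 such regions would count as gained, and without EPZ011989 replicate 2, 1 would. Without vehicle replicate 2, 1 would count as lost.

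Of the 9 treated peaks with H3K4me3, 4 had it in all 4 libraries and 5 in 1 library each. The region chr1:31297138-31298034 lay 106 bp from the start of ZCCHC17, which encodes a ribosome-associated zinc-finger protein, beside SNRNP40, a component of the U5 spliceosomal particle. All of its 897 bases were under H3K4me3 in every library. The peaks there had folds of 97.3 and 53.9 in the EPZ011989 lists and 117 and 113 in the vehicle lists, which are not comparable between lists. At SATB1, the gene of a chromatin organiser, all 487 bases of chr3:18435104-18435590 were under H3K4me3 in every library. The H3K4me3 peaks that hold it were 33166 and 16606 bp wide with EPZ011989, against 33115 and 33841 bp in vehicle.

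At NRDC, which encodes the metalloprotease nardilysin, 424 and 171 of the 424 bases of chr1:51875490-51875913 were under H3K4me3 with EPZ011989, against 404 and 319 in vehicle. The values of the groups overlapped there. The H3K4me3 peaks on it were 5165 and 4716 bp wide with EPZ011989, against 404 and 533 bp in vehicle, where separate peaks of 3417 and 3863 bp began 583 and 242 bp away. At FA2H, described above by its sequence, the values of the groups overlapped too. The other 5 had the mark in 1 library each. In EPZ011989 replicate 1, all 457 bases at VPS26C, a gene of endosomal protein recycling, were covered, and the peaks of EPZ011989 replicate 2 and of vehicle replicates 1 and 2 ended 530, 5 and 328 bp away. That library also covered 98 of 865 bases at RGS9. EPZ011989 replicate 2 covered all 1014 bases at KMT2C and 353 of 374 bases at TPX2, which encodes a spindle assembly factor. Vehicle replicate 1 covered 97 of 395 bases at ARHGAP18. The single-library peaks at RGS9, KMT2C, TPX2 and ARHGAP18 had folds of 4.44, 4.46, 4.01 and 5.09 in their own lists.

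**Figure D4:**
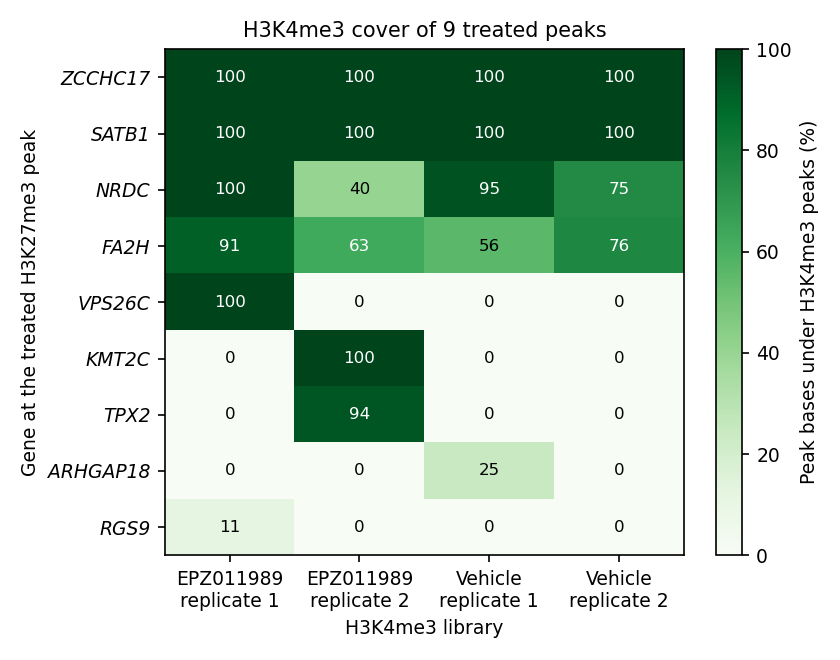
Share (%) of the bases of each of the 9 treated H3K27me3 peaks under H3K4me3 peaks, in EPZ011989 replicates 1 and 2 and vehicle replicates 1 and 2, with rows named by gene (ZCCHC17 shares its region with SNRNP40). The upper 4 rows have H3K4me3 in all 4 libraries and the lower 5 in 1 library each.

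The share of the 289 regions at protein-coding genes was close to that of the annotated span, and also to that of vehicle H3K27me3 peaks, which are wider. A protein-coding gene lay within 2500 bp of 143 of 289 (49.5%, exact 95% interval 43.6 to 55.4). Such stretches make up 44.4% of the annotated span of chromosomes 1 to 22, a value inside that interval. This span includes the vehicle H3K27me3 peaks, where the rule allows no region. The vehicle H3K27me3 lists gave 49.9% and 50.03%. The peaks on vehicle domains gave 49 of 72 (68.1%, 56.0 to 78.6), and the H3K4me3 lists gave 82.7% and 84.2% with EPZ011989 and 82.6% and 82.0% in vehicle. Inside a protein-coding gene body lay 137 of 289 (47.4%), where 42.1% of the span lies. Another 48 of 289 (16.6%) were at long noncoding genes alone, against 11 of 72 (15.3%), and 89 (30.8%) had no annotated gene within 2500 bp, against 12 of 72 (16.7%). In all, 143 protein-coding genes, 65 long noncoding genes and 12 pseudogenes lay at the regions.

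The share of regions near a start site was close to that of the span, vehicle H3K27me3 peaks included. Of the 283 regions on chromosomes with tabulated starts, 10 (3.53%, exact 95% interval 1.71 to 6.402) lay within 2500 bp of one, against 22 of 72 (30.6%, 20.2 to 42.5) on vehicle domains, and 4.68% of the span lies that close. The median distance to a start was 55.7 kb, against 8.46 kb on vehicle domains. The 10 were at ZCCHC17, FA2H, APELA, LOC107984462, TASOR2, LOC105373578, VCAN-AS1, PDE4B, VPS26C and INSL5. The table lists several starts for some genes, and the starts at TASOR2 and PDE4B lay 7.96 and 121 kb inside the gene, the other 8 within 1 kb of the gene's first base. Of these 10, the regions at ZCCHC17, FA2H and VPS26C carried H3K4me3 in at least 1 library and the other 7 in none.

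The genes that held a region in their body were long. Their median length was 215 kb over 136 genes, and 104 of them (76.5%) were 100 kb or longer. All 18973 protein-coding genes had a median of 24.8 kb, with 16.9% at 100 kb or longer. A position drawn evenly over gene bases would fall in a gene of 172 kb at the median, and 66.4% of gene bases lie in genes of 100 kb or longer. The 35 genes that held a peak on a vehicle domain had a median of 50.8 kb, with 28.6% at 100 kb or longer. With gene bodies of known strand cut into 4 equal parts from start to end, 36, 22, 28 and 26 of 112 positions fell in them in that order. Most of these genes had H3K4me3 within 2500 bp of a tabulated start: 81.1% and 81.1% of 111 with EPZ011989, against 81.1% and 79.3% in vehicle. For all genes of 100 kb or longer the shares were 81.9% and 81.4% with EPZ011989, against 80.3% and 79.99% in vehicle.

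Of the gene families counted, most held none of the regions, and the share expected from the bases they occupy was not computed. None of the 289 regions lay at a HOX gene, the homeobox clusters of body patterning, against 11 of 72 on vehicle domains. Those 11 lay in the HOXB cluster. The rule leaves out treated peaks on vehicle domains, so this contrast follows from how the set was chosen. None of the 289 lay at a PRC2 gene, an olfactory receptor, a microRNA, a histone or a ribosomal protein gene, where the peaks on vehicle domains counted 1, at a microRNA. Zinc-finger genes named ZNF had 1 region, at ZNF516, of 505 genes, against 0 on vehicle domains. Genes named LINC had 6, against 3 of 72.

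Of the marker lists, 1 of 13 Merkel cell and neuroendocrine genes, 1 of 4 keratinocyte, 0 of 4 fibroblast, 0 of 4 lymphoid and myeloid and 1 of 2 endothelial genes lay at a region. The neuroendocrine adhesion gene NCAM1 held a 400 bp region at the lowest fold, 4.37. The keratinocyte regulator TP63 held 394 bp at 5.22, and the endothelial adhesion gene PECAM1 held 409 bp at 4.78. The other genes named here were picked out after their values were seen. Axon guidance and ephrin receptor genes EPHA7, EPHB1 and SEMA3A held folds of 4.61, 4.81 and 4.37. The ion channel genes KCNH1, KCNT2, KCNMA1 and CACNA1E held 4.99, 4.37, 4.37 and 4.37. The insulin receptor gene INSR held the only region of chromosome 19, at 4.65, and the leptin receptor gene LEPR held 4.64. TASOR2, a relative of a gene of the HUSH silencing complex, held 4.69. Of these, EPHA7, EPHB1, KCNH1, KCNT2, KCNMA1, CACNA1E, INSR, LEPR and TASOR2 had H3K4me3 at 1 or more tabulated starts in all 4 libraries, TP63 had it in none, and NCAM1, PECAM1 and SEMA3A had no tabulated start.

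By chromosome, density was highest on the smallest one. Chromosome 21 held 15 regions, 0.321 per Mb (exact Poisson 95% interval 0.180 to 0.530), followed by chromosome 17 with 16 at 0.192, chromosome 6 with 29 at 0.170 and chromosome 1 with 37 at 0.149. The lowest were chromosome 19 with 1 at 0.0171, chromosome 16 with 3 at 0.0333, chromosome 22 with 2 at 0.0394 and chromosome 8 with 6 at 0.0414. The gene-dense chromosomes 17 and 19, with 13.9 and 24.1 protein-coding genes per Mb, thus lay at opposite ends. Densities are per Mb of full span, including vehicle H3K27me3 peaks, where the rule allows no region. Those peaks cover 16.2% of chromosome 17 and 30.8% of chromosome 19, against 6.75% over chromosomes 1 to 22. On vehicle domains 28 of 72 peaks (38.9%) were on chromosome 17, against 16 of 289 (5.54%) off them.

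Within chromosomes the counts of regions differed between stretches, and no count under an even spread is given beside them. On chromosome 17, 15 of 16 lay from 40 Mb to the end, which is 51.9% of its span. On chromosome 1, 27 of 37 lay from 20 to 120 Mb, 40.2% of the span, and on chromosome 21, 14 of 15 lay from 10 to 40 Mb, 64.3% of the span. These stretches were chosen after the positions were seen. Of 278 full bins of 10 Mb, 117 held no region, 91 held 1, 42 held 2 and 28 held 3 or more. Some empty bins, such as chromosome 1 from 130 to 140 Mb, also lack genes, H3K4me3 peaks and vehicle H3K27me3, and they enter the correlations below. The fullest, chromosome 1 from 70 to 80 Mb, held 8, with 37 protein-coding genes, 51 H3K4me3 peaks of vehicle replicate 1 and 123 kb of vehicle H3K27me3. Bins of 6 lay on chromosome 17 from 60 to 70 Mb and on chromosome 21 from 20 to 30 Mb. Across the 278 bins, which share 1 library and its depth, the Spearman correlation of the count was 0.02 with treated peaks on vehicle domains and 0.02 with H3K4me3 peaks of vehicle replicate 1. It was −0.02 with vehicle H3K27me3 cover and −0.06 with genes. Across the 22 chromosomes, the Spearman correlation of regions per Mb was −0.02 with genes per Mb and 0.07 with vehicle H3K27me3 cover. All are descriptions, and none is large.

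**Figure D5:**
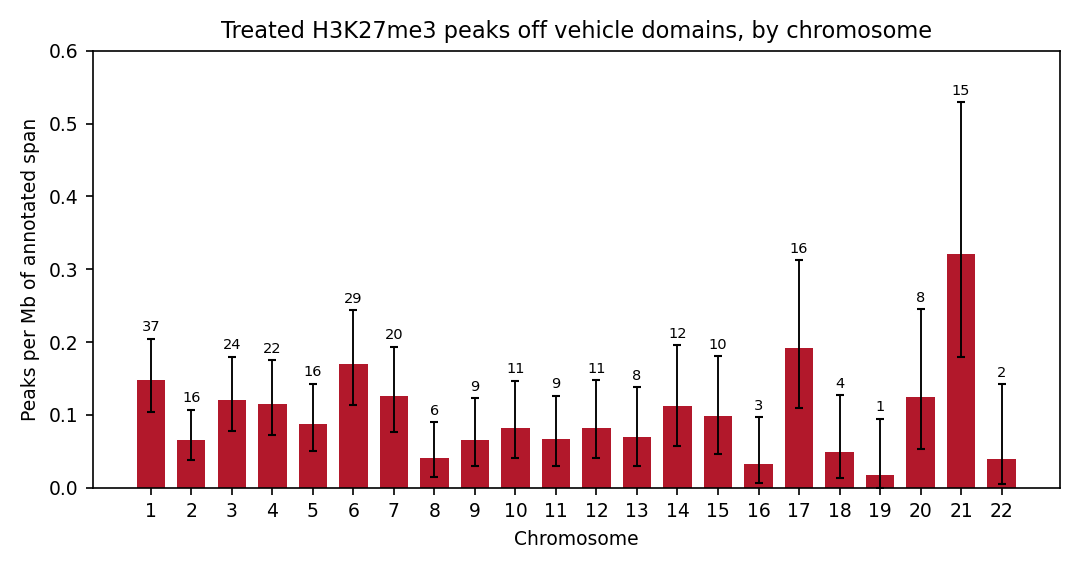
Treated H3K27me3 peaks off vehicle domains per Mb of annotated span on chromosomes 1 to 22; bars are densities, lines exact Poisson 95% intervals, and the number of peaks stands above each. Chromosome 21 is highest at 0.321 per Mb and chromosome 19 lowest at 0.0171.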

How the data were processed

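CUT&RUN was run on EPZ011989 and vehicle cultures of MKL-1 with 3 antibodies, and groups follow the labels. The deposited files are 1 peak list per library, with broad peaks for the H3K27me3 libraries and narrow ones for the others. The submitters' processing notes name MACS2 2.1.1.20160309, SAMtools 0.1.19, Bowtie2 2.2.9, FastQC and the hg38 build. Thresholds, the control and any use of the spike-in are not given in the sources used here. The authors' lists hold a fold, the ratio of pileup plus 1 to background plus 1, a −log10 p-value and −log10 q-value, and a score that is 10 times the −log10 q as a whole number in these files. Peaks on sequences other than chromosomes 1 to 22 were left out of the set.

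The deposited values were used as they stand, and folds were used within a list only. Mean fragments per peak were solved from fold and −log10 p under the Poisson model with a pseudocount of 1, with a constant background of the same library. The solver and the overlap steps were tested on simulated data. Overlap means 1 bp or more. Genes come from RefSeq on GRCh38.p14, 18973 protein-coding, and starts and promoters from a RefSeq table without chromosome 8, with 33725 starts of 26246 genes. Shares have exact Clopper-Pearson 95% intervals, densities exact Poisson ones and limits for a count of 0 use 3 counts; all cover counting error only. The H3K4me3 difference used an exact two-sided permutation test over 2 + 2 libraries. Its p-value is the share of labellings whose difference is at least as large, and it concerns these libraries only. The numbers of the replicates did not pair the groups.

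The set, gene lists and tests were chosen with earlier results of these data known. Named genes are those with 2 or more regions, at the 10 regions of highest fold, at the 10 widest, at clusters of 3 or more, and at IgG, replicate 2 or H3K4me3 changes; others are said to be chosen after their values were seen. Peak sequences were not read, since no genome was used here. Python 3.11.15, numpy 2.4.6, pandas 2.3.3, scipy 1.17.1 and matplotlib 3.10.9 were used. Alternatives were tried for thresholds, overlaps, distances and left-out libraries.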

Additional observations from a re-analysis of the deposited data

Results flagged for a closer look

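Outside chromosomes 1 to 22, EPZ011989 H3K27me3 replicate 1 had 2 peaks on the chromosome 17 scaffold GL000205v2, a sequence that no comparison of the report uses, and the control IgG libraries had 0 there in all 4. EPZ011989 replicate 2 had 0, and the vehicle H3K27me3 libraries had 2 and 2. The highest fold there was 5.38 in EPZ011989 replicate 1, against 19.5 and 21.0 in the vehicle lists, and folds are not comparable between lists. H3K4me3 lists held 5 and 4 peaks there with EPZ011989 and 2 and 5 in vehicle.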

How the results depend on the processing

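Of 47 alternatives tried on 12 results, 38 kept the value within its limits and 9 did not. The limits were 1.5 times the count, or the 95% interval of a share, median or density. The 6 for the H3K4me3 difference were judged by its direction and p-value, and with so few libraries only the direction could change. Leaving out an IgG library could not change an overlap of 0, so those settings were fixed in advance. The number of regions fell to 35 with treated peaks of −log10 q of 2 or more and to 135 with those above the median −log10 p of the list, by construction, since fewer peaks are kept. Leaving out 1 H3K27me3 library gave 17 to 293, where 17 is the rule applied to EPZ011989 replicate 2. The share within 50 kb of another region was 4.15% at 200 kb and 0% (0 of 135) for regions above the median −log10 p. The median fold of those was 4.85. Leaving out 1 H3K4me3 library, chosen after the data were seen, gave 0 to 2 gained and 0 to 1 lost H3K4me3 regions. The H3K4me3 difference kept its direction in all 6 alternatives, with 0.799 to 1.096 kb leaving out a library and 0.625 kb with H3K4me3 peaks of −log10 q of 5 or more. That difference came largely from H3K4me3 peaks that cover a region in 1 library each. With the replicate block it was 0.948 kb (exact permutation p = 0.5, the smallest that 2 pairs allow), and same-numbered libraries deviated with a correlation of −0.02 over 30308 regions. The share of regions with H3K4me3 ran from 1.73% (5 of 289), with H3K4me3 peaks of −log10 q of 5 or more, to 3.70%. The share at protein-coding genes ran from 47.4% to 52.6%. All regions rest on 1 library whose peaks hold few fragments, and 119 of 289 sit at its lowest fold, 5 fragments.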
